A study of Mus musculus with 6 samples.

Results

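Polycomb repressive complex 2 (PRC2) places methyl groups on lysine 27 of histone H3 and keeps genes silent. The 9 genes described here encode its subunits: Ezh1, Ezh2, Suz12, Eed, Jarid2, Mtf2, Phf19, Rbbp4 and Rbbp7. They were picked by gene name as subunits of the complex, and no count enters the rule; all 9 were found among the 24012 genes of the count table. Chromatin immunoprecipitation sequencing (ChIP-seq) of di- and trimethylated histone H3 lysine 79 (H3K79me2 and H3K79me3) gave reads over each gene, in bone marrow progenitor cells of mice. A retroviral vector gave all cells the leukemia fusion protein MLL-AF9, as the D544R mutant, the D546R mutant or WT. A single library was made for every genotype and mark, 6 in all, so nothing was replicated and no test between groups was possible. Mouse age, strain and sex are not known from the labels, and cells without a fusion were not analysed here.

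EZH1 and EZH2 are the alternative methyltransferase subunits of PRC2. SUZ12 holds the complex together, and EED binds the finished mark and stimulates the enzyme. RBBP4 and RBBP7 bind histones and serve other chromatin complexes too, while JARID2, MTF2 and PHF19 are accessory subunits that help bring PRC2 to its sites. In mouse MLL-AF9 leukemia, growth depends on PRC2, and EZH1 can partly stand in for EZH2. Methylation of H3K79, the work of DOT1L, is a mark of transcribed gene bodies, strongest towards their 5′ part, and AF9 is a binding partner of DOT1L. The values below therefore describe a mark on the PRC2 genes, not the amount of PRC2 or its activity.

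The promoters of Ezh2, Suz12 and Ezh1 are shown because Ezh2 and Suz12 were the members with the lowest H3K79me3 ratios in D546R, while Ezh1 stood on the other side of no change. Each window runs from 250 bases before to 20 bases after the start of transcription, 5′ to 3′ on the gene's strand, from RefSeq (GRCm38.p6). Capitals mark 4 spellings of the E2F motif (TTTCCCGC, TTTCGCGC, TTTGCCGC and TTTGGCGC) and the letters CCAAT, each on either strand. The E2F and CCAAT letters do not overlap in these windows. They are chr6:47595011-47595280 (minus strand), chr11:79992856-79993125 (plus strand) and chr11:101226444-101226713 (minus strand), in the order printed.
Ezh2: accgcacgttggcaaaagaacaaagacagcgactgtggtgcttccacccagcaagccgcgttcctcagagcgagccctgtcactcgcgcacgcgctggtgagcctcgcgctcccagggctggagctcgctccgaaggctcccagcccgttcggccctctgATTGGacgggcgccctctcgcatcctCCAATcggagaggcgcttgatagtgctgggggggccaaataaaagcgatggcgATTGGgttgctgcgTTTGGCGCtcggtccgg
Suz12: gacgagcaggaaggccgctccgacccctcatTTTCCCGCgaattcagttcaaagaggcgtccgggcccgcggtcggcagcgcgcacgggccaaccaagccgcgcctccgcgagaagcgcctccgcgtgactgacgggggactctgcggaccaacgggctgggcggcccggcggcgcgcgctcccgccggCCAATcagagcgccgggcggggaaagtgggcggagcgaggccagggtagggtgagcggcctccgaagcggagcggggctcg
Ezh1: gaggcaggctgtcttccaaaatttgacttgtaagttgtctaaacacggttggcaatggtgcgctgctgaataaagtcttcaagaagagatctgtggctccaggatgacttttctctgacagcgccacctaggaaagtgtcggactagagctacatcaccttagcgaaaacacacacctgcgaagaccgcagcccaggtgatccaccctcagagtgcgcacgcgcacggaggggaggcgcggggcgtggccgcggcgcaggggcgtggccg
The window of Ezh2 held 1 E2F match and 3 CCAAT matches, that of Suz12 held 1 and 1, and that of Ezh1 had neither. Of 27025 genes with a window, 2.06% had the E2F letters and 35.9% the CCAAT letters in the first one listed. Over the 9 members, 3 had the E2F letters (Ezh2, Suz12 and Phf19) and 5 the CCAAT letters in the first window, or 6 with the later window of Mtf2. Eed, Jarid2 and Rbbp4, with H3K79me3 ratios below 0 in both mutants, had no E2F letters. A link between letters and ratios was not tested. The first windows held 15 CpG dinucleotides (Eed) to 41 (Suz12), all above the median of 6 over all genes. All 4 E2F spellings contain a CpG, and the shares over all genes were not matched for CpG. A letter match is not a bound site, and the deposited counts cover whole gene regions, so they do not show what happened in these windows.

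The counted regions started, per the file headers, 2 kb before the TSS and stopped at the TES, the transcript end (mm9). The region of Ezh2 (NM_001146689, chromosome 6, 47478272 to 47545029) was 66.8 kb long. That of Suz12 (NM_001163018, chromosome 11, 79804607 to 79847625) was 43.0 kb and that of Eed (NM_021876, chromosome 7, 97101163 to 97129486) 28.3 kb. Jarid2 had the longest region, 192.9 kb (NM_001205044, chromosome 13, 44824142 to 45017012), and Rbbp7 the shortest, 20.7 kb (NM_009031, chromosome X, 159196303 to 159217022). The regions of Ezh2, Suz12, Eed and Mtf2 overlapped no other. Rbbp4 shared 11.4% of its region with Sync and 4.44% with Zbtb8os, and Rbbp7 shared 10.5% with Txlng. Ezh1 shared 4.30% with Cntnap1, Phf19 1.71% with Cutal and Jarid2 0.811% with Dtnbp1. Reads in shared stretches were part of both counts.

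Libraries held 4287873 (D544R), 3558329 (D546R) and 5993741 (WT) counts in H3K79me2, and 5207395, 6652571 and 5859821 in H3K79me3 in the same order of genotypes. From the share of short regions with no count, 3.26 to 4.78 reads per independent fragment were estimated in H3K79me2 and 8.12 to 18.6 in H3K79me3, the highest in D546R. Intervals below divide counts by these numbers and are called fragment intervals. They cover counting error only, not variation between cultures. As a check of the cell type, the 10 blood progenitor markers had 4.63, 5.36 and 4.28 times the summed H3K79me2 density of silent genes in D544R, D546R and WT. Of these 10 markers 6 were above 2 times in each library, and the lowest was at 0.972 (Flt3), 0.767 (Flt3) and 0.998 (Csf3r). Lymphoid, erythroid and stromal markers had 0.514 to 0.889 times. Every listed marker had at least 1 count. In H3K79me3 the blood markers had 1.79, 2.12 and 2.26 times, and the other 3 lists 0.629 to 1.39 times. Above 2 times were 2, 4 and 4 of the 10 blood markers, and also erythroid Epor in D546R (2.07) and Klf1 in WT (2.45). The split between the lists thus holds for the sums and not for every gene. Meis1, a known target of the fusion, had 17.4, 1.59 and 14.8 times the silent density in H3K79me2 in D544R, D546R and WT.

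Levels of the members were compared as counts per kb, divided by the counts per kb of 30 genes silent in blood (liver, muscle, brain and other tissue genes) in the same library. In H3K79me2, 7 of the 9 PRC2 genes stood well above the silent genes in every library, and Ezh1 and Phf19 did not. In the WT library the order was Jarid2 (6.71 times), Ezh2 (5.78), Mtf2 (5.53), Suz12 (5.36), Rbbp4 (4.99), Eed (4.35) and Rbbp7 (3.33), then Ezh1 (1.34) and Phf19 (1.07). Over all genes the median was 1.10 and 24.6% were above 2. Of neighbours in this order only Rbbp7 and Ezh1 had fragment intervals that did not overlap (2.55 to 4.29 and 0.970 to 1.80). The order of the other neighbours is not settled. Some genes further apart in it had intervals that did not overlap, such as Jarid2 (6.32 to 7.11) and Eed (3.57 to 5.25). A long region such as that of Jarid2 averages the mark over more bases. Rbbp7 is on chromosome X, and densities in either mark were not corrected for the number of gene copies per cell. The same 7 genes led in the mutants, with 3.63 (Rbbp7) to 6.00 (Jarid2) in D544R and 3.59 (Suz12) to 6.17 (Rbbp4) in D546R. In each mutant 25.4% of all genes were above 2.

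In H3K79me3 the WT library had the same kind of split, with 6 of the 9 above 2 times the silent density. Of all genes 16.3% were above 2 there. Suz12 led (4.74 times), followed by Ezh2 (3.52), Eed (3.20), Rbbp4 (3.05), Jarid2 (2.91) and Mtf2 (2.74). Rbbp7 was at 1.47, Phf19 at 0.913 and Ezh1 at 0.794. Fragment intervals overlapped between all neighbours in this order, such as Suz12 (3.83 to 5.81) and Ezh2 (2.89 to 4.25). Only Mtf2 (3.73) and Suz12 (2.22) were above 2 in D544R, where 10.7% of all genes were. In D546R only Mtf2 (2.27) was, beside 13.8% of all genes. The D546R count is near that share and is not read as a result about the members. Phf19, whose product binds chromatin marked at H3K36, had the lowest density in both mutants and both marks. Its density was 0.483 in D544R and 0.455 in D546R in H3K79me3. A lower level can come from fewer cells with the mark or from less mark per cell, which cannot be told apart here.

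**Figure D1:**
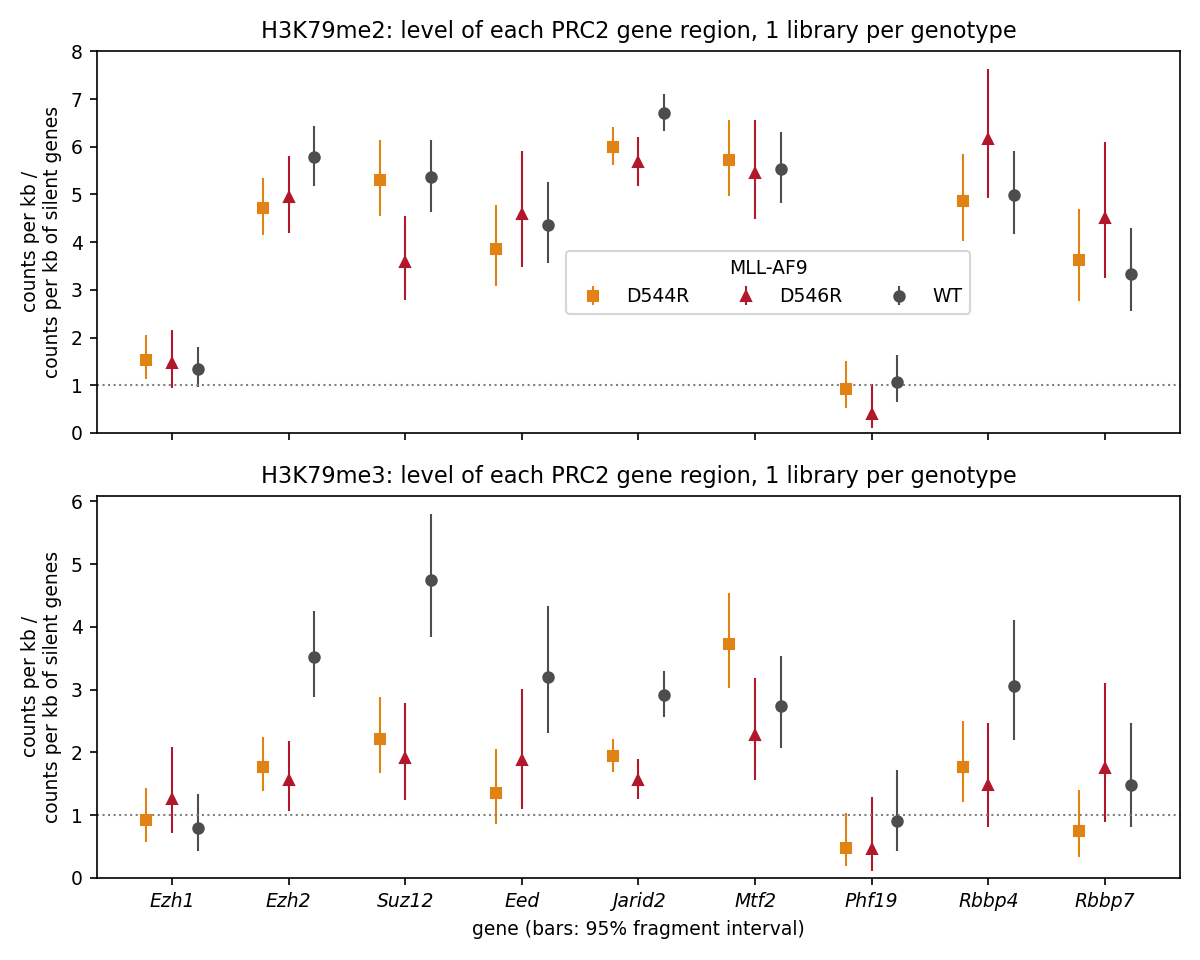
H3K79me2 (top) and H3K79me3 (bottom) counts per kb of each PRC2 gene, divided by those of 30 silent genes of the same library (dotted line at 1), for D544R, D546R and WT from left to right. Points are single libraries and bars 95% fragment intervals; in H3K79me3 Ezh2 and Suz12 have 1.77 and 2.22 in D544R, 1.55 and 1.91 in D546R, and 3.52 and 4.74 in WT.

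D544R against WT and D546R against WT asked whether the mark on these genes depends on the residue exchanged in the fusion. Counts were scaled between the 3 libraries of a mark, and a gene was past a fold rule when its ratio reached the fold with a counting interval clear of no change, and its normalised counts averaged 100 or more. The rule is a threshold of size and not a significance test. Of the 9 members 8 met the minimum in each mark, and Phf19 did not, with a mean of 46.9 in H3K79me2 and 67.5 in H3K79me3.

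None of the 8 PRC2 genes that met the minimum reached 1.5-fold in H3K79me2 in either mutant; Phf19, below the minimum, had a ratio of -1.30 in D546R. In D544R 0 of 8 members were past the 2-fold rule, as were 0.0112% (lower) and 0.0337% (higher) of 8905 genes tested, and 0 were past the 1.5-fold rule, against 0.517% and 0.853%. In D546R the count was again 0 of 8, where the 2-fold rule took 0.865% of all genes as lower and 0.887% as higher, and 4.26% and 8.89% at 1.5-fold. The median log2 ratio of the 8 members was -0.05 in D544R and 0.12 in D546R, beside -0.01 and 0.07 over all genes tested.

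Ezh2 had normalised H3K79me2 counts of 818 in D544R, 927 in D546R and 1016 in WT, both mutants below WT. Its log2 ratio was -0.31 in D544R (fragment interval -0.56 to -0.07) and -0.13 in D546R (-0.42 to 0.15). Suz12 had 591 in D544R, 433 in D546R and 607 in WT, with D546R apart from the other libraries. In D546R its ratio was -0.48 (-0.90 to -0.09), the lowest of the 8 members tested, at percentile 6.68 of all genes tested. In D544R the ratio was -0.04 (-0.34 to 0.26). Eed had 284, 364 and 325 in D544R, D546R and WT, and neither interval excluded no change. Ezh1, the catalytic paralog, had 149 and 153 in the mutants and 131 in WT, with ratios of 0.18 (-0.45 to 0.82) and 0.22 (-0.56 to 0.97).

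Among the accessory subunits, Jarid2 had normalised H3K79me2 counts of 3003 in D544R, 3071 in D546R and 3408 in WT. The large counts gave narrow intervals: -0.18 in D544R (-0.31 to -0.05) and -0.15 in D546R (-0.31 to 0.00). Mtf2, a Polycomb-like protein that binds CpG-rich DNA, had 677, 696 and 663 and ratios of 0.03 (-0.25 to 0.31) and 0.07 (-0.27 to 0.41). Its mutant and WT values were within counting error of each other, and these intervals did not reach 1.5-fold. They leave out scaling and variation between cultures, so they do not exclude a change of that size between genotypes. Phf19 had 52, 19 and 84 reads in D544R, D546R and WT, below the minimum, and a D546R ratio of -1.30 with a fragment interval of -3.34 to 0.25. Its level in WT was already that of the silent genes.

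The histone-binding subunits had the highest D546R ratios of the members in H3K79me2, and neither was past 1.5-fold. Rbbp4 had 383, 524 and 398 normalised counts in D544R, D546R and WT, and a D546R ratio of 0.40 (fragment interval -0.02 to 0.80). Rbbp7 had 195, 262 and 182, and a ratio of 0.53 (-0.08 to 1.12), the highest of the members. Both fragment intervals included no change. All genes were then split into 10 bins by H3K79me2 counts per kb in WT. The bin of Rbbp4 had a median D546R ratio of 0.19 (interquartile range -0.05 to 0.40) and that of Rbbp7 0.25 (0.01 to 0.47). Rbbp4 lay within the range of its bin and Rbbp7 above. The WT library that set the bins is also part of these H3K79me2 ratios, so bins and ratios are not independent. Rbbp4 was higher in D546R than in D544R by 0.45 (0.03 to 0.87).

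In H3K79me3 most PRC2 genes had lower counts in both mutants than in WT. The lowest ratios were those of Eed, Suz12, Ezh2 and Rbbp7 in D544R and of Suz12, Ezh2 and Rbbp4 in D546R. Ezh1 had positive ratios in both mutants. Of the 8 members tested 6 were below 0 in each mutant, beside 50.4% of 10824 genes in D544R and 52.1% in D546R. Medians over the 8 were -0.63 in D544R and -0.69 in D546R, beside -0.00 and -0.03 over all genes tested. Both mutants were set against the same WT library, so a high WT count would lower both ratios.

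In D546R, 2 of 8 members were at least 2-fold lower, where 8.92% of all genes were, and 0 were higher, where 6.94% were. At 1.5-fold 5 were lower (Ezh2, Suz12, Eed, Jarid2 and Rbbp4), against 19.8% of all genes, and 1 higher (Ezh1), against 16.8%. Eed was no longer past 1.5-fold with total counts (-0.55), with TMM factors (-0.58) or by the fragment interval. In D544R none was past 2-fold, against 3.02% (lower) and 4.36% (higher) of all genes. At 1.5-fold 4 members were lower in D544R (Ezh2, Suz12, Eed and Rbbp7), against 11.5%, and 1 higher (Mtf2), against 12.5%. With scaling to the silent genes Mtf2 was no longer past 1.5-fold (0.44), and Suz12 (-1.09) was past 2-fold, as was Eed.

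Suz12 had normalised H3K79me3 counts of 521 in D544R, 417 in D546R and 932 in WT, both mutants far below WT. Its log2 ratio was -0.84 in D544R (fragment interval -1.34 to -0.35) and -1.16 in D546R (-1.85 to -0.52). Ezh2 followed with 646, 527 and 1073, and ratios of -0.73 (-1.19 to -0.28) and -1.03 (-1.63 to -0.45). The 2-fold call of Ezh2 in D546R lay just past the threshold and was lost with total counts (-0.96) and with TMM factors (-0.99). Eed had 210, 270 and 415, with ratios of -0.98 (-1.79 to -0.21) in D544R and -0.62 (-1.52 to 0.23) in D546R. Suz12 and Ezh2 were thus below WT in both mutants by the fragment interval, and Eed in D544R.

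Ezh1 went the other way. It had 189 normalised H3K79me3 counts in D544R, 240 in D546R and 135 in WT, all at or near the silent level per kb. Its ratio was 0.48 in D544R (-0.58 to 1.59) and 0.82 in D546R (-0.33 to 1.99), so the fragment intervals included no change. Cntnap1, the neighbour whose region overlaps that of Ezh1, had ratios of 0.93 (-0.74 to 2.82) and 1.16 (-0.70 to 3.16).

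Jarid2 had 2044, 1520 and 2564 normalised H3K79me3 counts in D544R, D546R and WT, lowest in D546R. Its ratios were -0.33 (-0.59 to -0.06) and -0.75 (-1.11 to -0.41). Mtf2 had 926, 525 and 569, so D544R stood above both other libraries, and its ratios were 0.70 (0.22 to 1.20) and -0.12 (-0.78 to 0.53). Phf19, with 51, 60 and 91 reads, had ratios of -0.66 and -0.85 and intervals more than 3 log2 units wide.

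Rbbp4 had 291, 227 and 422 normalised H3K79me3 counts in D544R, D546R and WT, with ratios of -0.53 (-1.25 to 0.17) and -0.89 (from -1.87 to just below 0). Rbbp7 had 83.8, 185 and 140, so D544R was lowest and D546R highest. Its ratios were -0.73 (-2.12 to 0.57) and 0.40 (-0.85 to 1.63), and both fragment intervals included no change. The overlapping genes Sync, Zbtb8os and Txlng had fragment intervals that included no change in H3K79me3 in both mutants.

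**Figure D2:**
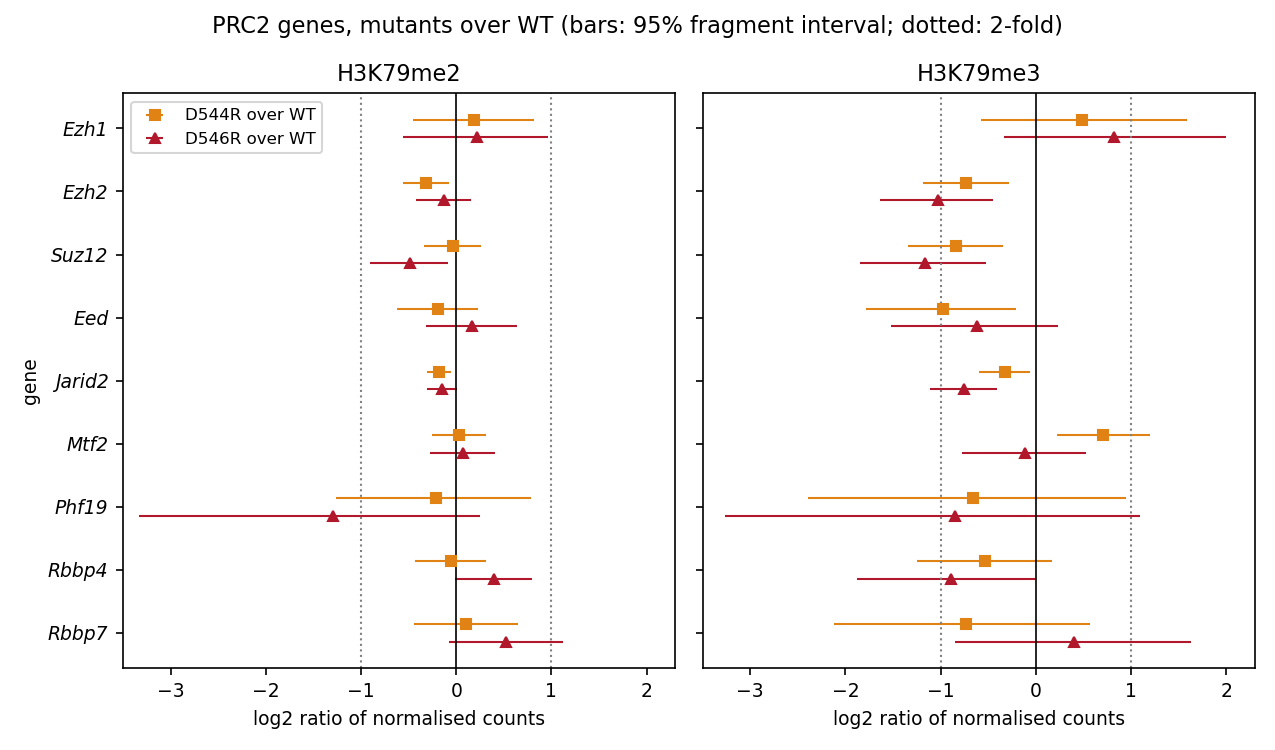
Log2 ratio of normalised counts of each PRC2 gene in D544R (squares) and D546R (triangles) over WT, in H3K79me2 (left) and H3K79me3 (right). Bars are 95% fragment intervals and dotted lines mark 2-fold; in H3K79me3 Suz12 lies at -0.84 and -1.16 and Ezh2 at -0.73 and -1.03, left of no change in both mutants.

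D546R against D544R does not use the WT library. In H3K79me2 no member was past 1.5-fold, against 4.47% (lower) and 8.02% (higher) of all genes, nor past 2-fold, against 0.876% and 0.775%. Suz12 was lower in D546R by this comparison too, at -0.45 (-0.87 to -0.04). Both comparisons use the same D546R library, so a low Suz12 count there would lower both ratios. In H3K79me3 Rbbp7 was the 1 member at least 2-fold higher, at 1.14 with a fragment interval of -0.24 to 2.58, where 5.77% of all genes were, and none was at least 2-fold lower, against 8.31%. Mtf2 was the 1 member at least 1.5-fold lower, at -0.82 (-1.43 to -0.24), where 19% of all genes were lower and 15.3% higher. For Mtf2 the D544R library is shared with the ratio of D544R against WT. Jarid2 was lower by 0.43 on the log2 scale, with a fragment interval of -0.79 to -0.07. The ratios of Suz12 and Ezh2 were -0.32 (-1.05 to 0.37) and -0.29 (-0.94 to 0.32), so a difference between the mutants in these genes was not detectable at this depth.

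Genes with a dense mark in general had lower H3K79me3 in the mutants, and this moved with the members. The same 10 bins were used, which come from the H3K79me2 WT library, a library that the H3K79me3 ratios do not use. The densest bin had median H3K79me3 ratios of -0.22 in D544R and -0.32 in D546R. It held Ezh2, Suz12, Eed, Jarid2, Mtf2 and Rbbp4. Suz12 was below the interquartile range of this bin in both mutants (-0.45 to 0.04 in D544R and -0.77 to 0.08 in D546R), as were Ezh2 and Rbbp4. Eed was below it in D544R only, Jarid2 was inside it in both, and Mtf2 was above it in D544R. Ezh1, of bin 7, was above the interquartile range of its bin in both mutants. Set against the median of their own bin, the 9 members, Phf19 included, differed by a median of -0.51 in D544R and -0.43 in D546R. In the densest bin 16.3% of genes were at least 2-fold lower in D546R, a share that the count of 2 members, both in this bin, is to be read against beside 8.92%. The part of mark density in these results was not tested.

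**Figure D3:**
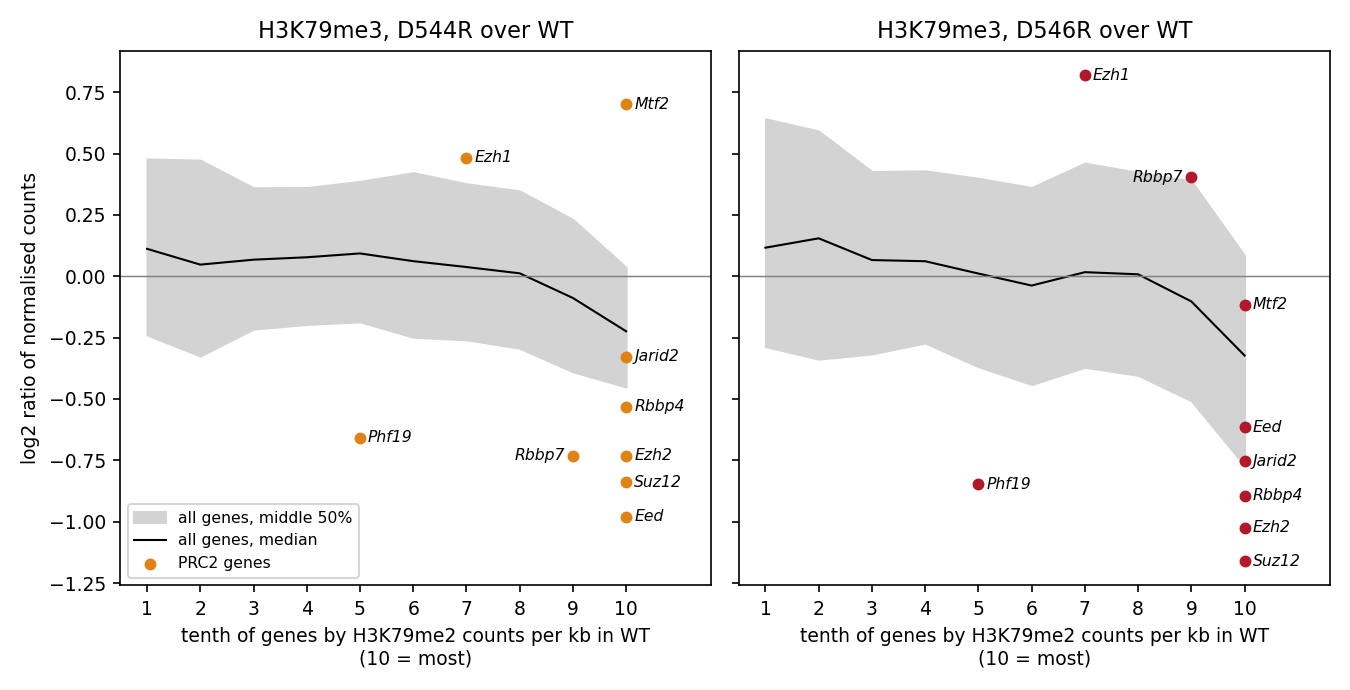
H3K79me3 log2 ratios over WT in D544R (left) and D546R (right) for the PRC2 genes (points), by bin (10 bins) of all genes in H3K79me2 counts per kb of the WT library. The line is the median and the grey band the interquartile range of all genes tested; Ezh2, Suz12 and Rbbp4 lie below the band of the densest bin and Ezh1 above its own in both mutants.

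A ratio of counts of a pair of members within 1 library needs no scaling between libraries. Ezh1 had 0.293 reads per read of Ezh2 in H3K79me3 in D544R, 0.455 in D546R and 0.126 in WT. The share of Ezh1 relative to Ezh2 was thus 2.32 times that of WT in D544R (fragment interval 0.995 to 5.11) and 3.60 times in D546R (1.41 to 8.69). Ezh1 was in density bin 7 and Ezh2 in the densest bin. Median H3K79me3 log2 ratios over WT were 0.04 (D544R) and 0.02 (D546R) in bin 7, and -0.22 and -0.32 in the densest. The part of this general difference in the ratio of the pair was not tested. In H3K79me2 the ratios of Ezh1 to Ezh2 were 0.182, 0.165 and 0.129, and the change was 1.41 times (0.883 to 2.27) in D544R and 1.28 times (0.697 to 2.18) in D546R. Rbbp7 had 0.287, 0.815 and 0.331 reads per read of Rbbp4 in H3K79me3 in D544R, D546R and WT, and the D546R value was 2.46 times that of WT (0.878 to 7.80). Mtf2 had 1.78, 1.26 and 0.611 reads per read of Suz12, which was 2.91 times WT in D544R (1.79 to 4.77) and 2.06 times in D546R (1.09 to 4.04). The choice of pairs followed a look at the values. Such ratios do not say which gene of a pair differed, and the fragment interval included no difference for Rbbp7 over Rbbp4, for Ezh1 over Ezh2 in D544R, and for Ezh1 over Ezh2 in H3K79me2.

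**Figure D4:**
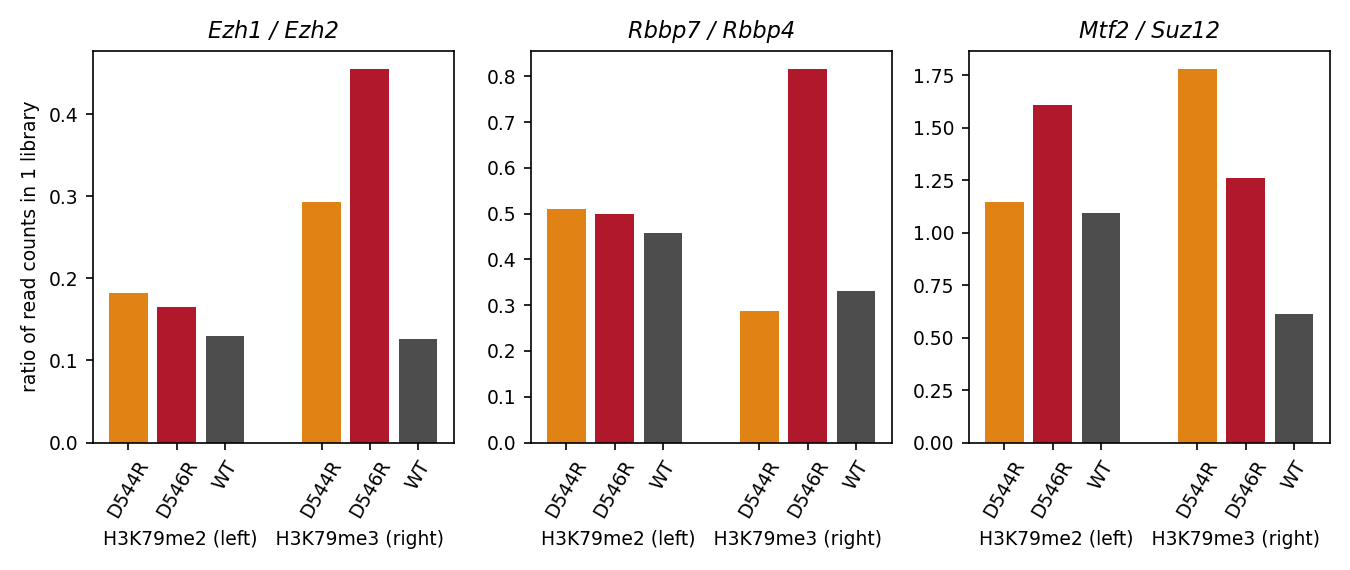
Ratio of read counts within single libraries for Ezh1 over Ezh2, Rbbp7 over Rbbp4 and Mtf2 over Suz12, in D544R, D546R and WT, with H3K79me2 on the left and H3K79me3 on the right of each panel. Bars start at 0 and have no error bar; the H3K79me3 ratio of Ezh1 to Ezh2 is 0.293, 0.455 and 0.126.

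The marks were then set side by side for each gene as the H3K79me3 log2 ratio minus the H3K79me2 log2 ratio. In D546R the difference was 0.60 for Ezh1, 0.45 for Phf19 and -0.12 for Rbbp7, and it was -0.89 for Ezh2, -0.68 for Suz12, -0.78 for Eed, -0.60 for Jarid2 and -1.29 for Rbbp4. Over 8411 genes tested in both marks the median was -0.12 and the interquartile range -0.58 to 0.32. The fragment intervals of the 2 marks did not overlap for Ezh2 and Jarid2. In D544R they did not overlap for Suz12, whose difference was -0.80, beside a median of 0.00 over all genes. Eed (-0.79) and Rbbp7 (-0.84) had differences of like size in D544R with overlapping fragment intervals. Mtf2 differed by 0.67 in D544R and -0.19 in D546R.

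Each member was also set beside regions around it on the chromosome. For each member the 3 nearest tested regions on each side that do not overlap it were taken. In H3K79me3 the farthest lay 3862 kb away for Ezh2, 460 kb for Eed, 409 kb for Suz12, 260 kb for Ezh1 and 189 kb for Mtf2. The neighbours of Ezh2 were therefore not all close to it. In H3K79me2 in D546R Suz12, at -0.48, was below all 6 neighbours, which ran from -0.17 to 0.27. In H3K79me3 in D546R Suz12 was within the range of its 6 neighbours (-2.85 to 0.32), as was Ezh2 (-1.27 to 0.35). In D544R in H3K79me3 Ezh2 was below its neighbours (-0.66 to 0.45) and Eed below its own (-0.58 to 0.33). Mtf2 was above its neighbours in D544R (-0.24 to 0.57), and Ezh1 above its own in both mutants (up to -0.04 in D544R and 0.25 in D546R). Over the 9 members, Phf19 included though below the minimum, 7 lay within the range of their neighbours in H3K79me3 in D546R and 3 in D544R. The share of all genes that lie within the range of their own neighbours was not computed. These counts are therefore not read as a result about the members.

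Other genes of the pathway were read from a list of 9: accessory PRC2 genes (Aebp2, Phf1, Lcor, Lcorl, Epop, listed as E130012A19Rik, and Ezhip, listed as AU022751) and the H3K27 demethylases Kdm6a, Kdm6b and Uty. In H3K79me2 4 met the minimum and 0 were past the 1.5-fold rule in either mutant. In H3K79me3 5 met it. In D546R 2 of these were past 1.5-fold lower (Lcorl and Kdm6a), against 19.8% of all genes, and in D544R 0, against 11.5%. Lcor was past 1.5-fold higher in both, against 12.5% of all genes in D544R and 16.8% in D546R, but it met the minimum only through the mutant libraries, so this call is not counted as a result. Kdm6a, which removes the mark that PRC2 places, had 1252, 952 and 1845 normalised H3K79me3 counts in D544R, D546R and WT. Its H3K79me3 ratios were -0.56 (-0.89 to -0.23) in D544R and -0.95 (-1.40 to -0.53) in D546R. In H3K79me2 Kdm6a was at -0.01 (-0.17 to 0.16) in D544R and -0.54 (-0.77 to -0.32) in D546R. Lcorl, an adaptor gene of PRC2, had 1309, 1144 and 1748 H3K79me3 counts, with ratios of -0.42 (-0.75 to -0.09) in D544R and -0.61 (-1.03 to -0.21) in D546R. Lcor, its paralog, had 176, 122 and 38.7, with ratios of 2.17 (0.58 to 4.23) and 1.64 (-0.29 to 3.87). Aebp2, which supports the binding of PRC2 to chromatin, had -0.40 (-0.99 to 0.18) and -0.48 (-1.21 to 0.21). Epop and Ezhip, an inhibitor of PRC2, had at most 16 reads in any library.

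Patterns most like those of the members were found by the Euclidean distance over 4 log2 ratios, those of both mutants against WT in both marks, among genes that averaged 300 or more in each mark. For Ezh2 the nearest of 3521 genes was Rfx7, at a distance of 0.0436 beside a median of 1.31. For Jarid2 it was Snx13 (0.0600), for Rbbp4 Pkhd1l1 (0.0681), for Mtf2 Agpat4 (0.173) and for Suz12 Abhd17b (0.217). Eed, Ezh1, Rbbp7 and Phf19 had too few counts for this comparison. The smallest of so many distances lies far below the median by construction. Each distance was also smaller than the width of every fragment interval of the member's own ratios. The named genes are therefore not resolved from others with like ratios. The 4 ratios share the WT library of each mark.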

How the data were processed

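ChIP-seq libraries of H3K79me2 (Abcam ab3594) and H3K79me3 (Diagenode) were made, per the labels' protocols, from cross-linked chromatin sonicated to about 300 bp. The authors deposited raw read counts per gene region, per the file headers, with no normalization. Per the labels, reads of several runs were merged. Bowtie, bedtools, DESeq and mm9 are named in the submitters' processing notes with no role or version. Removal of duplicates, treatment of reads with several matches and the side of the 2 kb extension on the minus strand are not stated and were not checked.

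Size factors were medians of ratios within a mark, rescaled to a geometric mean of 1 (0.972, 0.764 and 1.35 for D544R, D546R and WT in H3K79me2, 0.872, 1.17 and 0.982 in H3K79me3), from 23029 and 20863 genes with a count in all 3 libraries. Log2 ratios used a prior count of 0.5. Counting intervals were 95% exact conditional binomial (Clopper-Pearson). Fragment intervals divided counts by reads per independent fragment, estimated from 4591 autosomal regions shorter than 5 kb, an upper estimate where the signal is uneven. Calls needed a mean normalised count of at least 100. Steps were tested on simulated counts of independent reads, so the fragment intervals were not tested. Totals of 3558329 to 6652571 counts set the precision.

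Although no count enters the rule for members, the complex, lists and tests were chosen with earlier results of these data known. Named were all members, their overlapping regions, the pathway lists, Meis1 and the nearest pattern. No library was replicated and no p-value was computed. Alternatives were total counts, edgeR 4.0.16 TMM factors, all 6 libraries, silent genes, a prior count of 5, fragment intervals, other minimums and members without overlaps. Ratios of a pair of members, density bins a set without Rbbp4 and Rbbp7 and fragment intervals of levels were added after seeing the data. Python 3.11.15, scipy 1.17.1 and R 4.3.3 were used.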

Additional observations from a re-analysis of the deposited data

Results flagged for a closer look

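Rbbp4 had ratios of opposite sign in the marks in D546R against WT. Its log2 ratio was -0.89 in H3K79me3 and 0.40 in H3K79me2, a difference of -1.29, and both counting intervals excluded no change. The fragment interval in H3K79me2, -0.02 to 0.80, included it. The difference between the marks was not tested, since each mark had 1 library per genotype. Rbbp4 shares 11.4% and 4.44% of its region with Sync and Zbtb8os, whose part in the result was not tested. The densest bin of genes, which holds Rbbp4, had medians of -0.32 in H3K79me3 and 0.19 in H3K79me2 in D546R. Rbbp4 lay below the interquartile range of that bin in H3K79me3 and within it in H3K79me2. The bins and the H3K79me2 ratios share the H3K79me2 WT library, so they are not independent.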

How the results depend on the processing

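No paired analysis was possible because each group had 1 library. With scaling to the silent genes, the H3K79me3 median over all genes shifted by -0.26 in D544R and -0.15 in D546R, so members shifted with it, and genes at least 2-fold lower and higher numbered 766 and 224 in D544R, in place of 327 and 472, and 1306 and 521 in D546R, in place of 965 and 751. With it 2 members were at least 2-fold lower in D544R in H3K79me3 (Suz12 and Eed) in place of 0, 0 at least 1.5-fold higher in place of 1 (Mtf2 lost), and the median of the members was -0.89. In D546R against WT in H3K79me3, total counts and TMM factors each left 1 member at least 2-fold lower (Suz12), and members without overlapping regions left 3 at least 1.5-fold lower and 0 higher. Fragment intervals and a minimum of 300 each left 0 members at least 1.5-fold higher there. A minimum of 300 left 2 at least 1.5-fold lower in D544R. In D546R against D544R in H3K79me3, Rbbp7 was lost, leaving 0 members at least 2-fold or 1.5-fold higher, with fragment intervals, a minimum of 300, members without overlaps, or without Rbbp4 and Rbbp7. With no minimum, 1 member (Phf19) was at least 2-fold and 1.5-fold lower in H3K79me2 in D546R against WT and against D544R. The cause was not tested where a scaling moved a call; the other alternatives drop members or widen intervals by construction. No ratio of a member past 1.5-fold changed sign under any scaling or the prior count of 5. Single ratios left their counting interval in 10 of 54 cases with the silent genes, in 1 with total counts and in 0 with the others. Densities did so in 16 of 54 with olfactory receptor genes in place of the silent genes. The H3K79me3 depth in fragments limits Ezh1, Rbbp7 and Phf19 most.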
